A study of Mus musculus with 12 samples.

Results

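The alcohol dehydrogenase genes Adh1, Adh4 and Adh7 were followed across the 12 libraries of the series. They were taken by row name, as the rows carrying these 3 names among 736, and each was listed above the lowest value of the table, 21, in all 12 libraries. Total RNA of male C57BL6-NJ mice was hybridised to an nCounter metabolic panel, an assay that tallies colour barcodes, each tied to a transcript by its own probe, and needs no amplification. The 4 groups held 3 mice each: wild-type mice and mice with a constitutive knockout of SphK2, each on control diet with normal water or on Western diet with sugar water. SphK2 is sphingosine kinase 2, which makes sphingosine-1-phosphate. By the growth protocol, feeding began at 12 to 18 weeks of age and lasted 16 weeks, as a mouse model of early MASH, a fatty liver disease with inflammation. Labelled ages at sampling were 231 to 232 and 226 to 232 days in wild-type mice on control and Western diet, and 250 to 259 and 217 to 252 days in knockout mice, some of them above the sum of the weeks in the protocol. No tissue is named in the labels, and the knockout is constitutive, so it was not limited to one cell type.

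Alcohol dehydrogenases are zinc enzymes of the cytosol that use NAD to oxidise alcohols to aldehydes. Adh1 is the class I enzyme, abundant in hepatocytes and the main route of ethanol clearance in mice, and it also oxidises retinol. Adh4 is the class II enzyme, a liver form with a preference for larger alcohols. Adh7 is the class IV enzyme, which is known from the stomach and other epithelia, where it oxidises retinol and ethanol. The name Adh4 is also listed as an older synonym of Adh7 in the RefSeq gene table, but both names have a row of their own here.

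The 3 genes lie in tandem on chromosome 3, all on the plus strand (GRCm38.p6). Adh7 spans chr3:138198064-138232042, Adh1 chr3:138277585-138290698 and Adh4 chr3:138415456-138432683, so that 45542 bases separate Adh7 from Adh1 and 124757 bases separate Adh1 from Adh4. Between Adh1 and Adh4 the RefSeq annotation holds Adh6a, Adh6b and a pseudogene, Adh6-ps1, none of which has a row on the panel. The stretches in front of Adh1 and Adh4 are shown to set Adh4, the gene with the largest genotype difference below, beside its neighbour of highest signal (RefSeq, GRCm38.p6, plus strand, 5′ to 3′). Each ends at the base before the annotated start of the gene. For Adh1 this is chr3:138277335-138277584, and for Adh4 chr3:138415247-138415455. Capitals mark matches on either strand to any of 5 short motifs that do not overlap here, the TATA box TATAAA, the CCAAT box, the E-box CACGTG, the AP-1 site TGANTCA and the nuclear receptor half-site AGGTCA.
Adh1: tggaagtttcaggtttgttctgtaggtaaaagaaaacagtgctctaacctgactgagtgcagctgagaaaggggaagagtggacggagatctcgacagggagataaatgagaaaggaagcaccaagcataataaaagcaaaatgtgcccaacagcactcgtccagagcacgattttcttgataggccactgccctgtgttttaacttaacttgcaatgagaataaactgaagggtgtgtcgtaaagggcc
Adh4: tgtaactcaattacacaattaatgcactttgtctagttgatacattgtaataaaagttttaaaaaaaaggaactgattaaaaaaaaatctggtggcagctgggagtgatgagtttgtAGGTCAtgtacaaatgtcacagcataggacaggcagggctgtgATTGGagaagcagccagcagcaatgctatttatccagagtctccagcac
The Adh4 stretch of 209 bases held AGGTCA at chr3:138415364-138415369, and ATTGG, the reverse complement of CCAAT, at chr3:138415407-138415411. The Adh1 stretch of 250 bases held none of the 5 motifs. Of 32851 mouse promoter windows of 250 bases before the start, 14.0% held AGGTCA, 33.8% CCAAT, 12.4% TATAAA, 6.02% CACGTG and 6.75% TGANTCA. The matches are letters in a window and were not tested as binding sites.

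Recovered counts summed to 1138914 in replicate 3 of the Western-diet wild-type group and to 1702816 to 1924846 in the other 11 libraries. A principal component analysis of the 515 rows whose mean was over 50 gave a first component with 66.1% of the variance. On it, scores of knockouts were 5.73 to 10.1, apart from -4.91 in replicate 2 on control diet and -1.99 in replicate 2 on Western diet, and wild-type libraries had -8.01 to -3.95 except control-diet replicate 2 (1.91). Replicate 2 of 3 groups, all but the Western-diet wild types, therefore lay away from the other libraries of its group. Genotype results that rest on these libraries are given without both control-diet replicates 2, and also without all 3, a setting added after seeing the data. The table has no row named Sphk2, so the genotypes are those of the labels. Hepatocyte RNA was abundant: 8 hepatocyte markers with a row from A2m to Cat, such as Apoa1, Apob and Arg1, summed to 275475 to 391814 in every library. In wild-type groups this sum was 325843 to 373992 on control and 323224 to 391814 on Western diet, and in knockout groups 288657 to 347750 and 275475 to 347565. Its part in the differences below was not tested. Blk, the B-cell marker in these rows, was listed at 21 in all 12 libraries, and no marker of the macrophage, T-cell, stellate, endothelial or epithelial lists had a row there. In bulk RNA, fewer cells of a type and less RNA per cell cannot be told apart. Row names after Cat are in doubt (for example, the row named Ms4a1, a B-cell gene, had a mean of 1037 while Blk stayed at 21). The 3 genes here lie before it, in the 111 rows from A2m to Cat, and other rows are named only by the name they carry.

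The signals of the paralogues lay far apart, in the order Adh1, Adh4, Adh7 in all 12 libraries. Adh1 averaged 29942 ± 3937 (normalized signal, mean ± SD, n = 12), which placed it 12 of 736 rows and made it 1.27% to 2.07% of the summed signal of a library. Adh4 averaged 2367 ± 845 and ranked 103, and Adh7 averaged 56.4 ± 9.56 and ranked 506. The level of Adh1 was 7.89 to 18.1 times that of Adh4 within a library (median 13.3). The signal of Adh1 was 360.0 to 700.0 times that of Adh7 (median 533), which is a ratio of listed values, since Adh7 is not known to be above the panel's background. One probe pair counts each transcript, so length does not enter, but probes can differ in capture efficiency, which is not given in the sources used here. These ratios compare probe signals, and the order has no test.

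The 3 genes also differed in how much they varied. Adh1 had a coefficient of variation of 13.1% over the 12 libraries, Adh4 of 35.7% and Adh7 of 16.9%. Adh1 rested on 21919 to 38749 recovered counts per library and Adh4 on 1670 to 3809, for which counting error alone gives a coefficient of variation of 0.586% and 2.14%. Adh7 rested on 34 to 77 counts, for which counting error gives 13.6%, beside the 16.9% observed. Over the 81 rows from A2m to Cat that were above 21 in every library, the median SD on the log2 scale was 0.22, beside 0.19 for Adh1, 0.46 for Adh4 and 0.23 for Adh7.

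**Figure D1:**
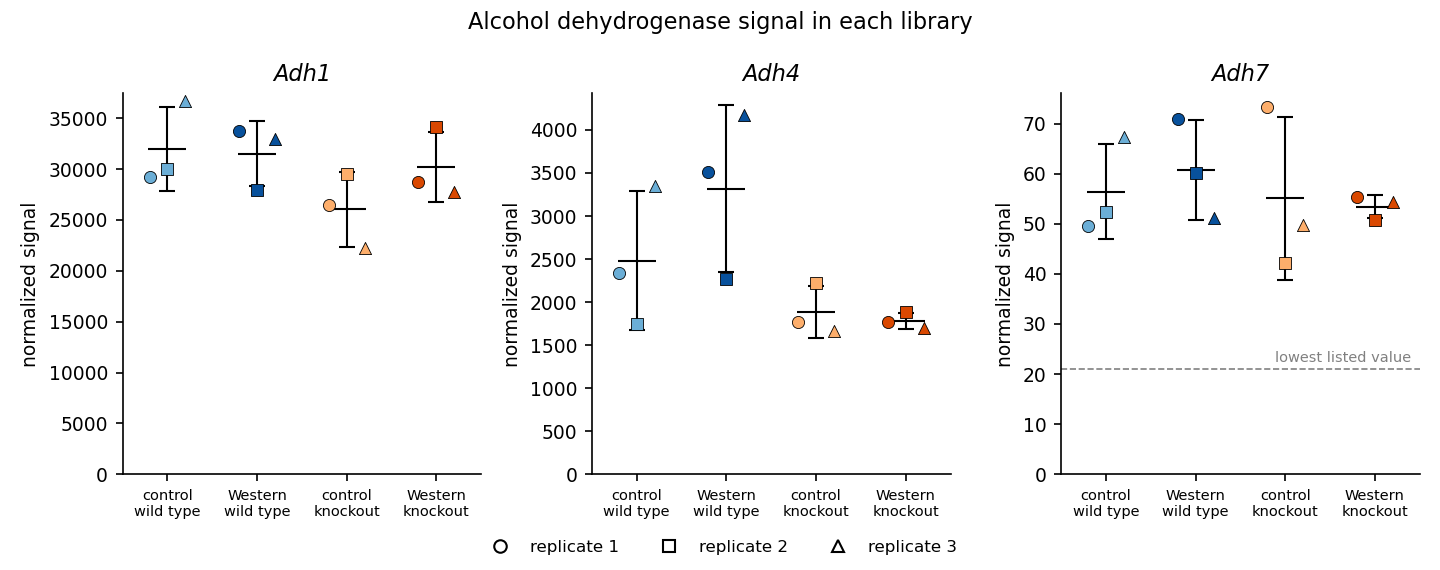
Normalized signal of Adh1, Adh4 and Adh7 (vertical axes, linear and starting at 0, 1 panel per gene) in each library of the 4 groups. Points are mice with the shape giving the replicate number, and the bars are the group mean and SD (n = 3). On Western diet Adh4 lies between 1696 and 1885 in knockout and between 2267 and 4179 in wild-type mice, while the groups of Adh1 and Adh7 overlap on this diet.

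Adh4 was the gene with the largest genotype difference of the 3. On control diet, wild-type replicates 1 to 3 had 2341, 1749 and 3349, and knockout replicates had 1763, 2227 and 1665. The groups overlapped, because replicate 2 was the lowest wild-type and the highest knockout library. On Western diet, wild-type replicates had 3509, 2267 and 4179, and knockout replicates had 1772, 1885 and 1696. Here every knockout library lay below every wild-type library, and the knockout values were close together, with an SD of 94.7 against 970 in wild type. The 3 highest values of the series, 4179, 3509 and 3349, were all wild type.

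On Western diet Adh4 averaged 1784 ± 94.7 in knockout and 3318 ± 970 in wild-type mice, a log2 fold change of -0.85 ± 0.27 (SE, 95% interval -1.47 to -0.23). It did not pass limma's test over the 736 rows (adjusted p = 0.155). In this comparison limma called 0.136% of rows, 20.9% had an unadjusted p under 0.05, and 8.97% had a knockout group wholly below the wild-type group, as Adh4 did. Adh4 was 15 of 736 from the lowest log2 fold change and 60 by p. On control diet the means were 1885 ± 300.5 and 2479 ± 809, a log2 fold change of -0.36 ± 0.27 (-0.97 to 0.26, limma adjusted p = 0.672), where limma called 0% of rows, 4.76% had an unadjusted p under 0.05 and 6.66% had groups that did not overlap.

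Averaged over both diets, Adh4 had a log2 fold change of -0.60 ± 0.19 between knockout and wild type (-1.04 to -0.17, limma adjusted p = 0.149). Limma called 0% of rows here, with 25.5% at an unadjusted p under 0.05. Control-diet knockouts were older than wild types (250 to 259 against 231 to 232 days), so age and genotype are tied in part in such an average. With age as a covariate the averaged Adh4 difference was -0.61 (limma adjusted p = 0.482), in a fit that does not separate age from genotype on control diet. Genotype held 46.8% of the sum of squares of Adh4, diet 4.09%, their interaction 7.87% and the spread within groups 41.3%. Without both control-diet replicates 2, which stood apart by their values, the 5 knockout libraries had 1665 to 1885 and the 5 wild-type libraries 2267 to 4179. They did not overlap, as was so in the same direction for 5.03% of all rows. The averaged log2 fold change was then -0.78 and passed limma's test (adjusted p = 0.0321), in a fit that called 155 rows. Without all 3 replicates 2 it was -0.80 (limma adjusted p = 0.0337), in a fit that called 250 rows. Because these libraries were left out for their values, and both control-diet ones lay against the difference in Adh4, this is no independent support. On control diet alone the Adh4 log2 fold change was -0.71 without both, or -0.11 without replicate 3 of the wild types (limma adjusted p = 0.175 and 0.96). Western-diet wild-type replicate 3, the library of lowest depth, had the highest Adh4 value, and without it the log2 fold change on Western diet was -0.66 (limma adjusted p = 0.383).

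Adh1 had a smaller genotype difference, and it was seen mainly on control diet. Control-diet wild-type replicates had 29207, 29979 and 36706, and control-diet knockout replicates 26432, 29540 and 22202. Knockout replicate 2 lay between wild-type replicates 1 and 2, and the other knockout libraries lay below the wild-type range. On Western diet, wild-type replicates had 33719, 27904 and 32962, and knockout replicates 28701, 34183 and 27767. These groups overlapped almost fully.

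On control diet Adh1 averaged 26058 ± 3684 in knockout and 31964 ± 4124 in wild-type mice, a log2 fold change of -0.30 ± 0.14 (95% interval -0.61 to 0.018, limma adjusted p = 0.65). On Western diet it averaged 30217 ± 3466 and 31528 ± 3161, a log2 fold change of -0.062 ± 0.14 (-0.38 to 0.25, limma adjusted p = 0.879). Averaged over diets it was -0.18 ± 0.098 (limma adjusted p = 0.264). Without both control-diet replicates 2 it was -0.43 on control diet and -0.25 averaged (limma adjusted p = 0.157 and 0.139), and without all 3 replicates 2 it was -0.15 on Western diet and -0.29 averaged (limma adjusted p = 0.515 and 0.0772). Genotype held 23.3% of its sum of squares, diet 7.23% and the spread within groups 59.6%. On control diet the labelled ages were 250 to 259 days for knockouts and 231 to 232 days for wild types, so age and genotype cannot be told apart on this diet. With age as a covariate the control-diet difference was -0.22 for Adh1 and -0.36 for Adh4 (limma adjusted p = 1 for both). That fit takes its age slope from ages within groups, which spread mainly in Western-diet knockouts (217 to 252 days). It therefore does not separate age from genotype on control diet.

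Adh7 showed no separation by genotype or diet. Control-diet wild-type replicates had 49.6, 52.4 and 67.3, and control-diet knockout replicates 73.4, 42.2 and 49.8. Western-diet wild-type replicates had 70.9, 60.1 and 51.1, and Western-diet knockout replicates 55.3, 50.8 and 54.3. The highest and the lowest value of the series, 73.4 and 42.2, both came from control-diet knockout mice, and counting alone allows 57.2 to 92.7 for the first and 30.9 to 56.3 for the second (exact Poisson 95% intervals, which cover counting error only). The log2 fold change between knockout and wild type was -0.17 ± 0.20 on Western diet (-0.64 to 0.30, limma adjusted p = 0.688) and -0.059 ± 0.20 on control diet (-0.52 to 0.41, limma adjusted p = 0.961). Genotype held 6.5% of its sum of squares and the spread within groups 90.8%. Of the 111 rows from A2m to Cat, 33 had a lower mean than Adh7 and 5 of these were at 21 in all libraries. The background signal of the panel is not given in the sources used here, so whether Adh7 was above it is not known.

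The Western diet with sugar water moved none of the 3 genes past the threshold in either genotype. In wild-type mice the log2 fold change of Western over control diet was 0.43 ± 0.27 for Adh4 (95% interval -0.19 to 1.04), -0.017 ± 0.14 for Adh1 (-0.33 to 0.30) and 0.10 ± 0.20 for Adh7 (-0.36 to 0.57), with limma adjusted p of 0.868, 1 and 1. In knockout mice it was -0.069 ± 0.27 for Adh4 (-0.69 to 0.55), 0.22 ± 0.14 for Adh1 (-0.097 to 0.53) and -0.0064 ± 0.20 for Adh7 (-0.47 to 0.46), each with a limma adjusted p of 1. All 6 pairs of groups overlapped. Limma called 0% of rows for diet in either genotype, with 6.66% of rows at an unadjusted p under 0.05 in wild type and 2.31% in knockout mice, and 11% and 5.98% with groups that did not overlap. Averaged over genotypes the log2 fold change was 0.18 ± 0.19 for Adh4, 0.10 ± 0.098 for Adh1 and 0.049 ± 0.14 for Adh7, each with a limma adjusted p of 1, where limma called 0% of rows and 2.45% had an unadjusted p under 0.05. Leaving out 1 library moved the diet difference of Adh4 in wild-type mice to between 0.20 (without control-diet replicate 2) and 0.68 (without Western-diet replicate 2), with 0.24 without Western-diet replicate 3 and 0.67 without control-diet replicate 3. Ages differed between the knockout groups, so diet and age are tied in part there. The intervals leave room for a change of Adh4 by a factor of 2 in wild-type mice, since 1.04 is above a log2 of 1.

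The diet effects in the 2 genotypes were compared through the interaction. For Adh4 it was -0.50 ± 0.38 (log2, 95% interval -1.37 to 0.38), for Adh1 0.23 ± 0.20 (-0.21 to 0.68) and for Adh7 -0.11 ± 0.29 (-0.77 to 0.55), each with a limma adjusted p of 1. The genotype difference was therefore not shown to differ between diets, neither for Adh4, where it was larger on Western diet, nor for Adh1, where it was larger on control diet. The interaction of Adh4 was -0.75 to -0.27 without any 1 library (-0.75 without replicate 2 and -0.31 without replicate 3 of the Western-diet wild types, -0.27 without replicate 2 of the control-diet wild types), -0.14 without both control-diet replicates 2 and -0.18 without all 3 replicates 2. Limma called 0% of rows for the interaction, and 5.98% had an unadjusted p under 0.05.

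**Figure D2:**
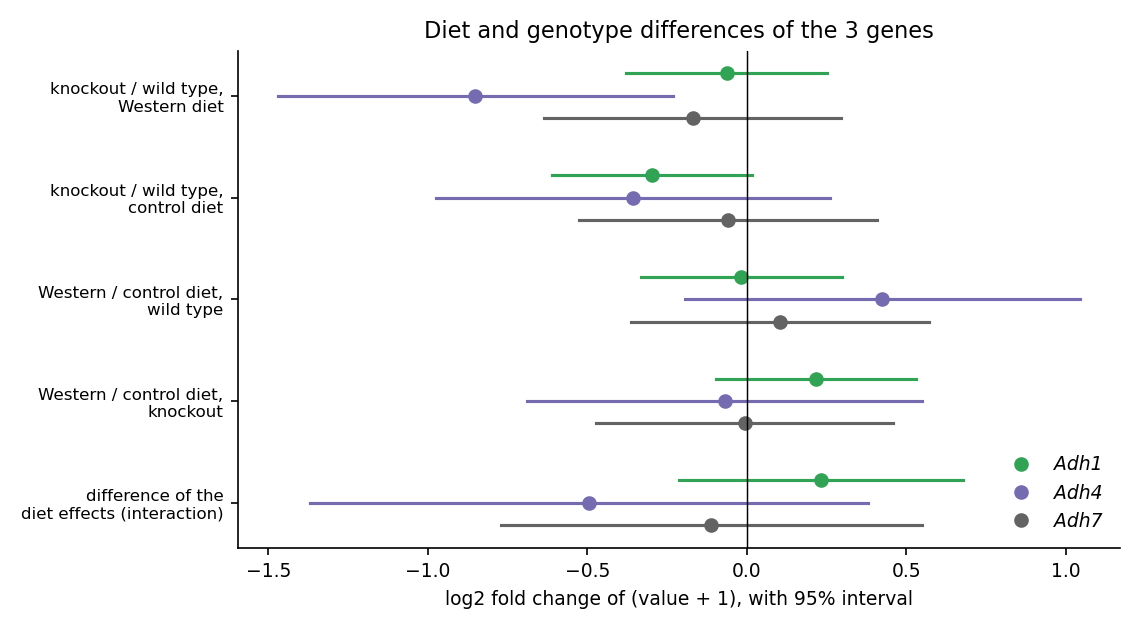
Log2 fold changes of value + 1 (horizontal axis) with their 95% intervals from limma for Adh1, Adh4 and Adh7 in the 4 simple comparisons and the interaction (vertical axis). Of the 15 intervals, that of Adh4 for knockout over wild type on Western diet, -1.47 to -0.23, is the one that leaves out 0, before adjustment over rows.

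Whether the paralogues shifted relative to one another was tested on ratios within a library, which do not depend on how libraries were scaled. The level of Adh1 over that of Adh4 was 12.5, 17.1 and 11.0 in control-diet wild-type and 15.0, 13.3 and 13.3 in control-diet knockout replicates. On Western diet it was 9.61, 12.3 and 7.89 in wild-type and 16.2, 18.1 and 16.4 in knockout replicates. The groups overlapped on control diet and were apart on Western diet, where each knockout library had relatively less Adh4. Over both diets the log2 ratio was 0.42 higher in knockout than in wild-type mice (two-sided exact permutation test within diets, p = 0.04, adjusted p = 0.24 over 6 ratio tests, where 0.005 is the smallest p it allows). It did not pass.

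On Western diet alone the log2 ratio differed by 0.79 and on control diet by 0.059 (two-sided exact permutation p = 0.1 and 0.8, n = 3 each, where 0.1 is the smallest p possible). The difference between these was not tested. Leaving out 1 library gave 0.35 to 0.52 over both diets, and 11 of 12 such tests did not pass. The 1 that did (0.52, exact permutation, adjusted p = 0.03) left out control-diet wild-type replicate 2, whose ratio of 17.1 was the highest in wild type and lay most against the difference, so that it gives no support. Without both control-diet replicates 2 the difference was 0.53, and without all 3 replicates 2 it was 0.51 (exact permutation, adjusted p = 0.05 and 0.1). Leaving out libraries, even 1, cuts the number of relabellings and so limits how small a p can be. A set without 1 library could still pass, as the 1 above did. In the sets without both or all 3 replicates 2 an adjusted p could hardly fall under 0.05, so a miss there says little. This also holds for the ratio of Adh7 to Adh4 in the same sets. In knockout mice the ratio was also higher on Western than on control diet in 3 of 3 libraries, by 0.29 on the log2 scale (exact permutation p = 0.1, n = 3 each). For Adh7 over Adh4 the log2 ratio was 0.49 higher in knockout mice (exact permutation p = 0.09, adjusted p = 0.27), or 0.73 without both control-diet replicates 2 and 0.77 without all 3 (exact permutation, adjusted p = 0.05 and 0.1). For Adh7 over Adh1 the log2 ratio was 0.063 higher (p = 0.72, adjusted p = 0.79, exact permutation). On Western diet alone the log2 ratio of Adh7 to Adh4 was 0.68 higher in knockout mice, with groups apart (exact permutation p = 0.1). Apart from this and the separated groups given above for Adh1 over Adh4, all simple comparisons of the ratios had overlapping groups.

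**Figure D3:**
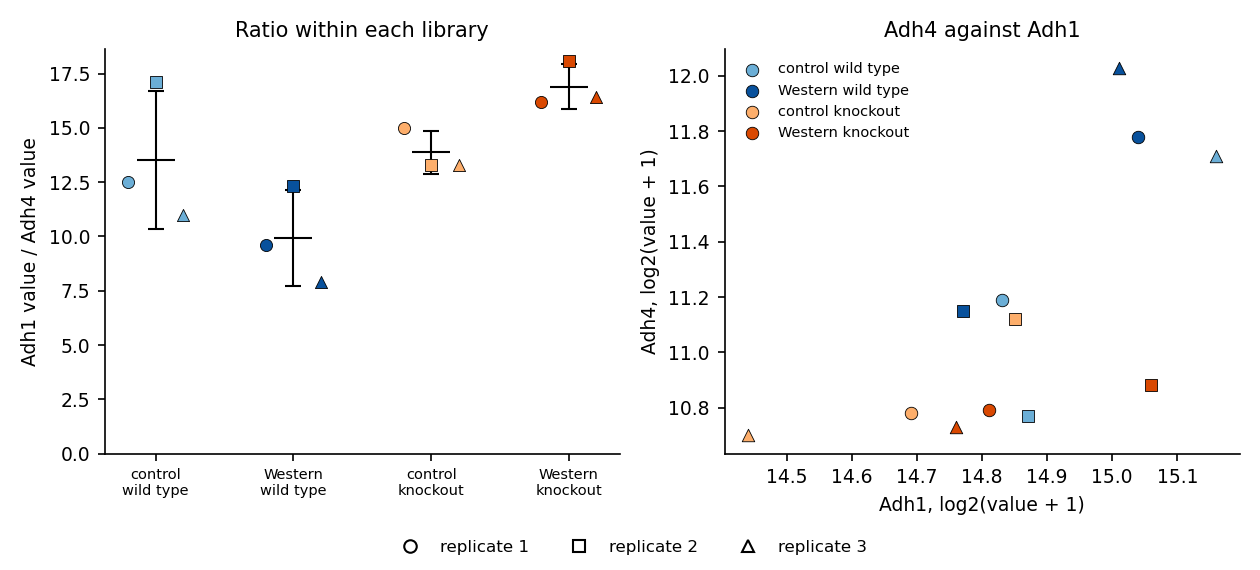
Left, the level of Adh1 over that of Adh4 in each library (vertical axis, linear from 0) by group, with mean and SD of 3 mice. Right, Adh4 against Adh1 as log2(value + 1), 1 point per library. Western-diet knockout libraries have ratios of 16.2 to 18.1 and Western-diet wild-type libraries 7.89 to 12.3, and the 3 libraries highest in Adh4 are among the 4 highest in Adh1.

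Adh1 and Adh4 were correlated over the 12 libraries. Pearson's r was 0.676 (permutation p = 0.0149, adjusted p = 0.0446 over 3 pairs) and Spearman's rho was 0.671 (permutation p = 0.0204, adjusted p = 0.0611). After the group means were taken off, r was 0.766 and rho 0.832. These carry no p, because deviations within a group sum to 0 and cannot be permuted freely. The 3 libraries highest in Adh4 were set apart after their values were seen. Without them r was 0.344 and rho 0.467 (permutation p = 0.406 and 0.216, n = 9). Leaving out the highest values of 1 gene also narrows its range, and the part of this in the lower r was not tested. Without control-diet wild-type replicate 3 and control-diet knockout replicate 3, the libraries with the highest and the lowest Adh1, r was 0.604 (permutation p = 0.0621, n = 10). Adh7 had no correlation past the threshold with either gene, as r was 0.201 with Adh1 (permutation p = 0.536) and 0.234 with Adh4 (permutation p = 0.463), and rho was 0.021 and 0.126 (permutation p = 0.956 and 0.702). Without the same 2 libraries r of Adh7 with Adh1 was -0.172 (permutation p = 0.632), and without Western-diet wild-type replicates 1 and 3 r of Adh7 with Adh4 was 0.206 (permutation p = 0.56). Libraries share a scaling factor, and the 3 correlations (Adh1 with Adh4, Adh1 with Adh7, Adh4 with Adh7) depended on how it was treated. With each library centred on its median they were 0.801, 0.51 and 0.557. With each library scaled to the same summed value they were 0.77, 0.201 and 0.331. The higher values for Adh7 came with median centring, which takes 1 shared term off all 3 genes of a library.

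The rows most like each gene were sought among 78 other rows from A2m to Cat that were above 21 in all libraries, by Pearson's r of log2 values over 12 libraries, as a description that takes in the 3 libraries highest in Adh4. For Adh4 they were Acmsd (r = 0.89), a decarboxylase of tryptophan breakdown that limits NAD synthesis, Asl (0.877) and Ass1 (0.867), the urea cycle's argininosuccinate lyase and synthase, Bhmt2 (0.824), a homocysteine methyltransferase, and Apom (0.814), which binds sphingosine-1-phosphate on lipoprotein particles. Each of these had a lower mean in the 6 knockout than in the 6 wild-type libraries. Since they were chosen for likeness to Adh4, itself lower on average in knockouts, this follows in part from the choice. It is no separate support for a genotype difference. Acmsd averaged 106.8 against 282.3, Asl 2564 against 4406, Ass1 19310 against 31450, Bhmt2 3786 against 4835 and Apom 2216 against 3967. None passed limma's test averaged over diets (adjusted p = 0.149 each). Taken as deviations from group means, which leave out what the groups share, r with Adh4 was 0.726 for Acmsd, 0.739 for Asl, 0.702 for Ass1, 0.601 for Bhmt2 and 0.494 for Apom.

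For Adh1 the 5 rows were Adk (r = 0.819), adenosine kinase, Ak3 (0.797), a mitochondrial adenylate kinase, Arg1 (0.789), the arginase that completes the urea cycle, Atp5k (0.788), a subunit of the mitochondrial ATP synthase, and Asl (0.778). Asl was the row common to the lists of Adh1 and Adh4. For Adh7 the highest r was lower, 0.612 for Atxn7, 0.527 for Ampd2 and 0.425 to 0.446 for Acacb, Aspg and Aprt, and rho was 0.364 to 0.476 over the 5. Over all 537 other rows above 21 in every library, whatever their name, 4 had a higher r with Adh4 than Acmsd, 7 a higher r with Adh1 than Adk and 6 a higher r with Adh7 than Atxn7.

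Of 51 further genes of alcohol, aldehyde, acetate and retinol metabolism, 5 had a row, and 4 of these lie from A2m to Cat. Aldh2, the mitochondrial enzyme that oxidises acetaldehyde to acetate, had 21409 ± 3558 in Western-diet wild-type and 26800 ± 4477 in Western-diet knockout mice, while on control diet it had 25711 ± 1984 and 24923 ± 1938. Its log2 fold change for genotype on Western diet was 0.32 ± 0.15 (limma adjusted p = 0.247), opposite in sign to that of Adh4. Cat, the peroxisomal catalase that can also oxidise ethanol, had -0.089 ± 0.18, Akr1c6, an aldo-keto reductase acting on hydroxysteroids, 0.09 ± 0.26, and Aox1, an aldehyde oxidase, 0.14 ± 0.19. None of the 4 passed in any of the 7 comparisons. On Western diet 3 of the 4 had a positive and 1 a negative genotype difference (median log2 fold change 0.12, beside 0.03 over all rows). On control diet all 4 were negative (median -0.13, beside 0.02 over all rows). In wild-type mice all 4 had lower values on Western diet (median -0.22, beside -0.01 over all rows), where Adh4 had a higher one. The row named Rbp4, which lies after Cat, averaged 132 to 141 in the 4 groups.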

How the data were processed

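Total RNA, extracted by the Trizol method per the labels' protocols, was hybridised to barcoded probes. The deposited table gives a normalized signal of 736 rows for 12 libraries. The authors' software, reference genes and background step: not given in the sources used here. Within each library values below 3000 were whole multiples of 1 step, 0.906 to 1.50 (100% within 0.1 of a whole number), from which counts were recovered. Values below about 21 are listed at 21, so no count model was used. Groups came from the labels. Replicates are numbered in sample order and pair nothing. The labelled diet duration, 16 to 27 weeks, differs from the protocol's 16 and was not used.

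Values were tested as log2(value + 1) with limma 3.58.1 in R 4.3.3 (4 group means, 12 libraries, 8 residual degrees of freedom, 7 contrasts), adjusted by Benjamini-Hochberg over 736 rows, threshold 0.05. Errors are moderated standard errors. Labels give each library its own mouse. Limma's p-values rest on the spread of 3 animals a group, pooled over all 4 groups. Control-diet libraries therefore also enter the errors of the Western-diet comparisons, and the reverse. Ratios were tested by exact permutation within strata, and correlations with 100000 resamples (Python 3.11.15, scipy 1.17.1). Rows like each gene were the 5 of highest r among rows from A2m to Cat. All other named genes came from lists. The genes, lists and block from A2m to Cat were chosen with earlier results of these data known. All 736 row names and both printed promoters matched RefSeq tables. Some listed marker genes are not reported here.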

Additional observations from a re-analysis of the deposited data

How the results depend on the processing

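Adh4 kept a negative log2 fold change for genotype on each diet and averaged in every alternative run. On Western diet it passed with array weights (-0.93, limma adjusted p = 0.0023) and in none of the other 10 alternatives (-1.01 to -0.85) nor without any 1 library (-1.10 to -0.66). Averaged over diets it passed with array weights (-0.72) without both control-diet replicates 2 (-0.78) and without the 3 replicates 2 that lay away from their groups (-0.80, added after seeing the data), and was -0.73 to -0.48 without any 1 library. Array weights also brought Adh1 past the threshold on control diet (-0.40) and averaged (-0.29). Their estimate stopped short of its tolerance, gave weights of 0.22 to 7.45, and called 326 rows for genotype on Western diet, 195 on control diet and 371 averaged, 26 for diet in knockout, 1 in wild type and 3 averaged, and 19 for the interaction.

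The count of rows for genotype on Western diet, 1 with all libraries, was 0 with median centring, equal sums, the low-value filter, age, or the 2 groups alone, and 37 without both control-diet replicates 2. Without these it was 26 on control diet and 155 averaged, without the 3 replicates 2 it was 174 on Western diet, 135 on control diet and 250 averaged, and with age as a covariate 2 for diet in knockout. Leaving out 1 library gave 0 to 21 rows for genotype on Western diet (21 without replicate 2 of the control-diet wild types, 15 without replicate 2 of the Western-diet wild types, 4 without replicate 2 of the control-diet knockouts), 0 to 3 on control diet (3 without replicate 2 of the control-diet knockouts), 0 to 132 averaged (132 without that library, 20 without replicate 2 of the control-diet wild types), 0 to 1 for diet in wild type and for the interaction, and 0 for diet in knockout and averaged.

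Signs near 0 turned. Adh1 for diet in wild type was 0.022 with equal sums and 0.076 with array weights. Adh4 for diet in knockout was 0.043 with array weights, 0.057 without both control-diet replicates 2 and 0.017 without the 3 replicates 2. Adh7 was 0.065 for genotype on control diet and -0.059 for diet averaged without both of these libraries (0.065 and -0.041 without the 3), and for diet in knockout 0.0054 with median centring, 0.024 with array weights and 0.079 with age. The correlation of Adh1 with Adh4 missed the threshold without the 2 libraries farthest from the median of Adh1 (r = 0.604), and without the 3 highest in Adh4 (0.344, chosen after seeing the data). That of Adh1 with Adh7 turned in both (-0.172 and -0.209), and that of Adh4 with Adh7 in the latter (-0.297). Without any 1 library, log2 fold changes that turned sign were -0.28 to 0.11 for Adh7 for genotype on control diet, -0.078 to 0.086 for Adh1 for diet in wild type, and -0.012 to 0.24 for Adh7 there, -0.15 to 0.057 for Adh4 and -0.18 to 0.22 for Adh7 for diet in knockout, -0.036 to 0.16 for Adh7 for diet averaged and -0.28 to 0.11 for its interaction. Log2 ratio differences ranged from 0.35 to 0.52 for Adh1 over Adh4 by genotype (passing without control-diet wild-type replicate 2) and -0.16 to 0.014 by diet, from -0.042 to 0.20 and -0.18 to 0.056 for Adh7 over Adh1, and from -0.28 to 0.025 for Adh7 over Adh4 by diet. The cause of these changes was not tested. Median centring shifts knockout against wild-type libraries by 0.16 on the log2 scale. No paired analysis was possible because the labels carry no replicate numbers. Adh7 rests on 34 to 77 counts a library.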
